A study of Mus musculus with 12 samples.

Results

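The CC chemokines of macrophages were followed over 12 expression arrays of bone marrow-derived macrophages (BMDMs). They were 10 genes, *Ccl2*, *Ccl7*, *Ccl12*, *Ccl3*, *Ccl4*, *Ccl5*, *Ccl6*, *Ccl9*, *Ccl17* and *Ccl22*, of the 18193 genes tested, and were chosen by name as CC chemokines that macrophages make constitutively or after lipopolysaccharide (LPS). A total of 12 probe sets, the groups of short probes that each report on a transcript, carried their symbols, with 2 probe sets each for *Ccl6* and *Ccl9* and 1 for each of the other genes. ΔTrspM mice had the genotype Trspfl/fl-LysM-Cre+/-, in which Cre made from the lysozyme M promoter in myeloid cells removes the floxed gene for the selenocysteine tRNA, on which selenoprotein synthesis depends. Control mice were Trspfl/fl-LysM-Cre-/- and carried the floxed alleles without Cre. All mice were female and of the c57bl6 strain, and the sources do not give their age. Marrow cells were grown into macrophages over 7 days in M-CSF and were then given LPS for 4 h or left unstimulated, which gave 4 groups of 3 arrays: LPS-stimulated ΔTrspM, LPS-stimulated control, unstimulated ΔTrspM and unstimulated control. The labels number the arrays of a group as biological replicates 1 to 3 without saying whether these were separate mice, so the p-values reflect the spread among these arrays alone, part of which may be technical. By the study's account, a few cells of a ΔTrspM culture can escape the deletion and other cell types can be present. The deleted gene itself was not analysed here.

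Chemokines are small secreted proteins that guide leukocytes along a gradient, and in the CC family the first conserved cysteines stand next to each other. They act through receptors coupled to G proteins, and several ligands share a receptor. LPS engages Toll-like receptor 4, which turns on chemokine genes through NF-κB and, by way of interferon regulatory factors, a wave of type I interferon and its target genes. Inflammatory CC chemokines made in this way draw monocytes, T cells and other leukocytes into tissue, while a few family members are made by resting macrophages as well.

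Levels are given as log2 of the quantile-normalized signal plus 16, so that a difference of 1 is a change of 2-fold in signal plus 16. The same scaling gives every array a highest possible value of 14.25, and *Ccl3*, *Ccl4*, *Ccl5* and *Ccl9* lay close to it after LPS, where differences can be compressed. Mean deposited signals ran between 199.7 and 861 per array. Replicate 2 of LPS-stimulated ΔTrspM cells was the dimmest array, with 47.7% of its probe sets under a signal of 16, against 16.1% to 28.8% elsewhere. Replicate 2 of the unstimulated control cells stood apart in a different way: its 10 measured interferon target genes averaged 11.86, against 7.52 and 7.82 on the other control arrays without LPS. The 8 macrophage markers averaged 12.35 to 12.70 on each array and the 6 measured lymphoid markers 4.90 to 5.43. The 7 measured dendritic cell markers averaged 6.38 to 7.45, and the part of such cells in the chemokine levels was not tested. For the chemokines and the lists set beside them, values without these arrays are given where they changed a call or moved a value by much.

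The genes differed in their LPS response, and the promoters available for them are described here. The RefSeq promoter table (GRCm38.p6) matched 6 of the 10 genes, and the 250 bases before the transcription start were searched on both strands for 6 motifs: the κB consensus, the interferon-stimulated response element core (GAAA and GAAA with any 2 bases between), the STAT6 motif (TTC and GAA with any 4 bases between), the AP-1 motif TGANTCA, the PU.1 core GAGGAA and the TATA box TATAAA. The 3 windows with a match to a κB, STAT6 or TATA motif are shown, with every match in capitals. *Ccl12* lies on the plus strand at chr11:82101595-82101844, *Ccl9* on the minus strand at chr11:83578637-83578886, and *Ccl17* on the plus strand at chr8:94810203-94810452, before a start site inside its annotated gene interval.
Ccl12: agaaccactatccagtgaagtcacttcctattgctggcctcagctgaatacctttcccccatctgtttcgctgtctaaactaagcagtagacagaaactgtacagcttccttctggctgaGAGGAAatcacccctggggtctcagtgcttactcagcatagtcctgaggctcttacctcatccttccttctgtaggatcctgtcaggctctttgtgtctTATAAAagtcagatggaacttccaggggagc
Ccl9: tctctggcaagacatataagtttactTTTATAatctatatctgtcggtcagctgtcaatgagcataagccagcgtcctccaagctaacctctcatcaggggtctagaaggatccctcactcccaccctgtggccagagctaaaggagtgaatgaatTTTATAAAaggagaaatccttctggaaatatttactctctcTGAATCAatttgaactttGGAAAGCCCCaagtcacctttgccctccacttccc
Ccl17: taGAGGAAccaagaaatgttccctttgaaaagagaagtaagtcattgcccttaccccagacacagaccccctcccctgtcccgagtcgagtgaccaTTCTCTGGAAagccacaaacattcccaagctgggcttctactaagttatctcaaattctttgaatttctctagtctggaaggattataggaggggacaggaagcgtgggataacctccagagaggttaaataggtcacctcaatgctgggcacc
In the *Ccl9* window the capitals near the start were a κB match, GGAAAGCCCC, read on the minus strand of the gene at -35 to -26, with an AP-1 match, TGAATCA, at -53 to -47. The *Ccl12* window held a TATA box at -31 to -26 and a PU.1 core at -130 to -125. In *Ccl17* the capitals at -154 to -145 were the STAT6 match TTCTCTGGAA, and a PU.1 core lay farther from the start. The *Ccl3* window held a PU.1 core only, and the windows of *Ccl6* and *Ccl22* held no match to these letters. Among all 32851 promoters, 7.25% held the κB consensus, 2.98% the interferon element, 5.85% the STAT6 motif, 6.75% the AP-1 motif, 23.3% the PU.1 core and 12.4% the TATA box, so that a match in 1 of these genes is a description of its letters. *Ccl2*, *Ccl4*, *Ccl5* and *Ccl7* were not matched. The genes lie in clusters: *Ccl2*, *Ccl7* and *Ccl12* follow each other on chromosome 11 between 82035577 and 82103399, *Ccl5*, *Ccl9*, *Ccl6*, *Ccl3* and *Ccl4* lie on the same chromosome between 83525778 and 83664683, and *Ccl22* and *Ccl17* on chromosome 8 between 94745684 and 94812038. The annotated intervals of *Ccl3* and *Ccl4* overlap.

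LPS raised most of the family in both genotypes. In ΔTrspM cells 8 of the 10 genes rose at an adjusted p under 0.05 in limma with Benjamini-Hochberg adjustment over all genes, where 7.29% of all genes rose, and in control cells 7 of the 10 rose, where 7.09% of all genes rose. None of the 10 fell. For comparison with the bulk of transcripts, the median log2 fold change of the 10 genes was 3.48 in ΔTrspM and 3.46 in control cells, against -0.03 and -0.05 over all genes tested. *Ccl6* and *Ccl9*, which were already high without LPS, did not pass the test in either genotype, and *Ccl12* did not pass it in control cells.

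**Figure D1:**
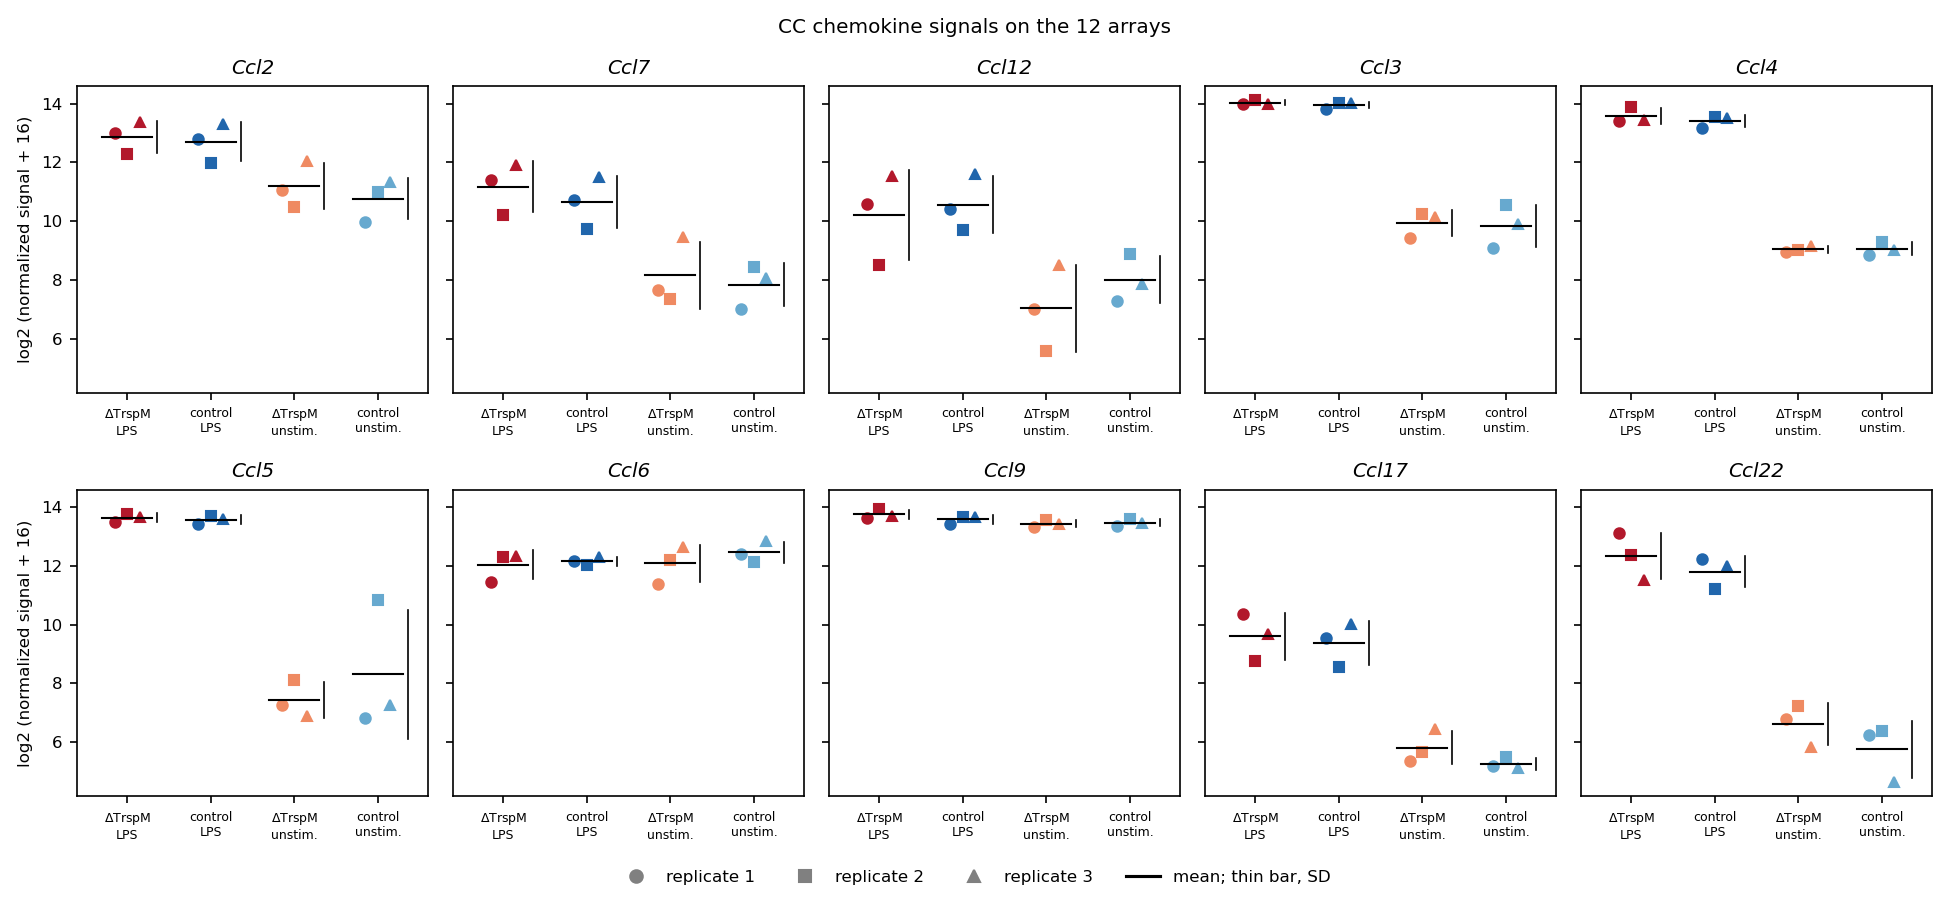
Log2 normalized signal (plus 16) of the 10 CC chemokines on the 12 arrays, 1 panel per gene, with points for replicates 1 to 3 of LPS-stimulated ΔTrspM, LPS-stimulated control, unstimulated ΔTrspM and unstimulated control cells, horizontal lines for means and thin vertical bars for the SD (n = 3). *Ccl5* in unstimulated control cells shows replicate 2 at 10.83, away from 6.84 and 7.25, while *Ccl9* stays between 13.33 and 13.94 on every array.

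The ligands of CCR2, the receptor through which inflammatory monocytes leave the bone marrow and enter tissue, were *Ccl2* (MCP-1), *Ccl7* (MCP-3) and *Ccl12* (MCP-5 of the mouse). *Ccl2* had log2 signals of 12.99, 12.28 and 13.37 in LPS-stimulated ΔTrspM cells and 12.81, 11.99 and 13.31 in LPS-stimulated control cells. Without LPS it had 11.07, 10.48 and 12.05 in ΔTrspM and 9.98, 10.99 and 11.33 in control cells. LPS-stimulated arrays lay above the unstimulated arrays of their own genotype without overlap, and the genotypes overlapped at either stimulus. *Ccl2* rose 3.20-fold with LPS in ΔTrspM cells (log2 fold change 1.68, 95% interval 0.59 to 2.77, adjusted p = 0.0414 in limma) and 3.85-fold in control cells (log2 fold change 1.94, interval 0.85 to 3.03, adjusted p = 0.0212). The call in ΔTrspM cells was lost without replicate 1 or 3 of LPS-stimulated ΔTrspM, replicate 1 of LPS-stimulated control, replicate 1 or 2 of unstimulated ΔTrspM or replicate 2 of unstimulated control cells (log2 fold change as low as 1.32, adjusted p up to 0.145). In control cells it was lost without replicate 1 or 3 of the LPS-stimulated arrays or replicate 1 of the unstimulated arrays (as low as 1.55, adjusted p up to 0.0884). These fits did not pair the replicates. With all arrays and replicates paired by number, the adjusted p in limma was 0.00657 in ΔTrspM and 0.0031 in control cells.

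*Ccl7* had 11.40, 10.22 and 11.92 in LPS-stimulated ΔTrspM and 10.72, 9.74 and 11.49 in LPS-stimulated control cells. Its unstimulated levels were 7.67, 7.34 and 9.45 in ΔTrspM and 7.01, 8.45 and 8.07 in control cells. Again no unstimulated array reached the LPS-stimulated arrays of its genotype. The gene rose 8.15-fold in ΔTrspM cells (log2 fold change 3.03 ± 0.65 SE, adjusted p = 0.00961 in limma) and 7.00-fold in control cells (log2 fold change 2.81 ± 0.65, adjusted p = 0.0133). Without replicate 3 of the LPS-stimulated control arrays the adjusted p in control cells was 0.0509 (log2 fold change 2.39), and without replicate 1 of the unstimulated control arrays it was 0.0606 (also 2.39). With all arrays and replicates paired by number, the adjusted p in limma was 0.00249 in ΔTrspM and 0.00351 in control cells.

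The spread was widest for *Ccl12*. Its log2 signals were 10.59, 8.52 and 11.53 in LPS-stimulated ΔTrspM cells and 10.42, 9.68 and 11.60 in LPS-stimulated control cells. Unstimulated, it had 7.02, 5.57 and 8.52 in ΔTrspM and 7.28, 8.89 and 7.87 in control cells. In ΔTrspM cells the dim LPS-stimulated replicate 2 met the highest unstimulated array, whereas in control cells the LPS-stimulated arrays were all higher. *Ccl12* rose 9.06-fold in ΔTrspM cells (log2 fold change 3.18 ± 0.87 SE, adjusted p = 0.0299 in limma, and 0.0107 with replicates paired by number). In control cells the log2 fold change was 2.55 (interval 0.64 to 4.46) with an adjusted p of 0.0733, and with replicates paired by number, as a block, the adjusted p was 0.0282. Leaving out replicate 1 or 3 of LPS-stimulated or replicate 1 or 2 of unstimulated ΔTrspM cells ended the call in ΔTrspM cells (log2 fold change as low as 2.45, adjusted p up to 0.108), and leaving out the dim array brought the control comparison past the threshold (adjusted p = 0.0406).

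Without scaling between arrays, none of the 3 CCR2 ligands passed the test in either genotype. The log2 fold changes were then 0.92 for *Ccl2*, 1.89 for *Ccl7* and 2.11 for *Ccl12* in ΔTrspM cells, beside a shift of -0.73 in the median of all genes, and 1.77, 2.44 and 2.16 for the same genes in control cells, beside a shift of -0.25. Within 3 of the 4 groups, the levels of *Ccl2*, *Ccl7* and *Ccl12* had the same order over the arrays: replicate 3 was highest and replicate 2 lowest in LPS-stimulated ΔTrspM, LPS-stimulated control and unstimulated ΔTrspM cells. The exception was unstimulated control cells, where replicate 1 was lowest for all 3 genes. The mean log2 level of stromal markers, which fibroblasts and other adherent marrow cells express, had that order in all 4 groups. The 8 stromal markers averaged 8.63, 8.15 and 9.51 in LPS-stimulated ΔTrspM, 8.43, 7.51 and 8.70 in LPS-stimulated control, 8.04, 6.76 and 8.92 in unstimulated ΔTrspM and 7.69, 6.22 and 8.61 in unstimulated control cells. As summed normalized signal, the list ran between 3290 and 9903 in LPS-stimulated ΔTrspM, 4494 and 5117 in LPS-stimulated control, 1084 and 8469 in unstimulated ΔTrspM and 556 and 7758 in unstimulated control cells, and no stromal marker was at 0. By that sum, replicate 1 and not replicate 2 was the lowest LPS-stimulated control array. The 7 measured neutrophil markers also averaged lowest on replicate 2 in each group, at 8.9997 in LPS-stimulated ΔTrspM, 9.02 in LPS-stimulated control, 8.16 in unstimulated ΔTrspM and 8.78 in unstimulated control cells, and were highest on replicate 1 in both ΔTrspM groups and on replicate 3 in both control groups. Their summed signal ran between 7864 and 19197 in LPS-stimulated ΔTrspM, 7681 and 17787 in LPS-stimulated control, 4668 and 10555 in unstimulated ΔTrspM and 6332 and 11697 in unstimulated control cells. Array brightness before scaling was also lowest on replicate 2 in each group. The mean deposited signals there were 199.7 in LPS-stimulated ΔTrspM, 492.1 in LPS-stimulated control, 575.0 in unstimulated ΔTrspM and 733.8 in unstimulated control cells. They were highest on replicate 3 in both ΔTrspM groups and on replicate 1 in both control groups. The part of stromal cells, neutrophils or array brightness in the levels of the CCR2 ligands was not tested. In bulk samples of this kind, fewer cells of a type and less RNA per cell cannot be told apart.

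*Ccl3* (MIP-1α), *Ccl4* (MIP-1β) and *Ccl5* (RANTES) draw T cells, monocytes and natural killer cells, and *Ccl3* and *Ccl5* are ligands of CCR1. *Ccl3* had 13.99, 14.13 and 13.99 in LPS-stimulated ΔTrspM and 13.82, 14.03 and 14.01 in LPS-stimulated control cells. Without LPS it had 9.44, 10.23 and 10.15 in ΔTrspM and 9.10, 10.54 and 9.89 in control cells. The LPS-stimulated arrays of both genotypes lay close together and far above all unstimulated arrays. *Ccl3* rose 17.2-fold in ΔTrspM cells (log2 fold change 4.10 ± 0.33 SE, adjusted p = 2.51e-05 in limma) and 17.3-fold in control cells (log2 fold change 4.11 ± 0.33, adjusted p = 2e-05).

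*Ccl4*, which had the smallest SE of the induced genes, had 13.41, 13.90 and 13.45 in LPS-stimulated ΔTrspM and 13.18, 13.56 and 13.51 in LPS-stimulated control cells. Its unstimulated levels were 8.95, 9.01 and 9.16 in ΔTrspM and 8.86, 9.30 and 9.01 in control cells. The gap between stimuli exceeded the spread of any group many times over. The rise was 23.3-fold in ΔTrspM cells (log2 fold change 4.54, interval 4.09 to 4.996, adjusted p = 4.79e-07 in limma) and 20.6-fold in control cells (log2 fold change 4.36, interval 3.91 to 4.82, adjusted p = 6.21e-07). Since the LPS-stimulated levels of *Ccl3*, *Ccl4* and *Ccl5* were close to the highest value that the scaling allows, their folds may be compressed.

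*Ccl5* had 13.48, 13.78 and 13.68 in LPS-stimulated ΔTrspM and 13.42, 13.70 and 13.61 in LPS-stimulated control cells. Unstimulated levels were 7.26, 8.10 and 6.90 in ΔTrspM and 6.84, 10.83 and 7.25 in control cells. A single unstimulated control array, replicate 2, thus lay far above the others of its group, though still below every LPS-stimulated array. *Ccl5* rose 74.8-fold in ΔTrspM cells (log2 fold change 6.23 ± 0.81 SE, adjusted p = 0.000507 in limma) and 38.6-fold in control cells (log2 fold change 5.27 ± 0.81, adjusted p = 0.00129). Without replicate 2 of the unstimulated control cells the log2 fold change in control cells was 6.53 (adjusted p = 1.39e-06).

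**Figure D2:**
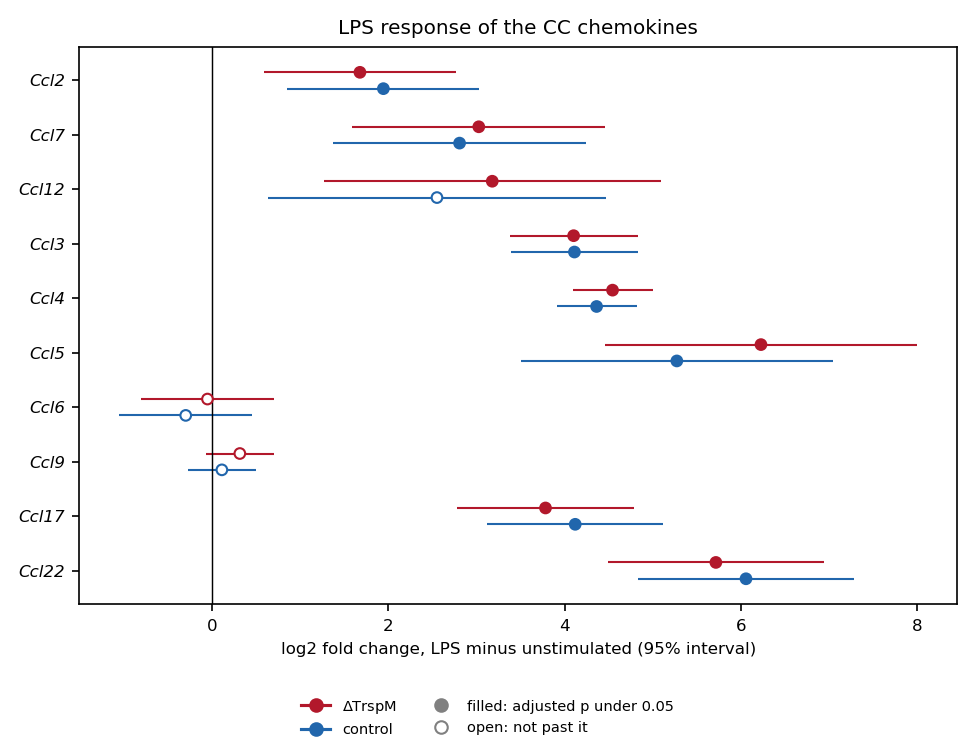
Log2 fold change, LPS minus unstimulated, of each CC chemokine in ΔTrspM (red, upper) and control cells (blue, lower), with 95% intervals as bars and filled points for an adjusted p under 0.05. *Ccl5* and *Ccl22* have the highest values (6.23 and 5.71 in ΔTrspM, 5.27 and 6.06 in control), *Ccl6* and *Ccl9* lie at 0.32 or below, and the open point of *Ccl12* in control cells marks an adjusted p of 0.0733.

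The high *Ccl5* on that array went with interferon target genes. The mean of the 10 measured genes of the interferon list was 7.70, 8.27 and 7.33 in unstimulated ΔTrspM cells and 7.52, 11.86 and 7.82 in unstimulated control cells, and after LPS it was 13.45 to 13.54 in ΔTrspM and 13.55 to 13.61 in control cells. Among them, *Oasl1*, an oligoadenylate synthetase-like protein, had 6.45, 7.49 and 6.62 in unstimulated ΔTrspM and 6.79, 10.28 and 6.56 in unstimulated control cells. *Ccl12*, at 8.89, *Ccl3*, at 10.54, *Ccl4*, at 9.30, and *Ccl9*, at 13.61, were also at their highest unstimulated level on this array, *Ccl4* and *Ccl9* by little over the next array. The other probe set of *Ccl9* was at 13.73 there, against 13.06 to 13.48 on the other unstimulated arrays. The 13 measured NF-κB targets averaged 9.04, 9.70 and 8.99 in unstimulated ΔTrspM and 8.70, 10.60 and 8.77 in unstimulated control cells, so replicate 2 was the highest of its group in both genotypes. *Ccl6*, at 12.13 there, was lower than on the other unstimulated control arrays. The part of these other genes' levels in the *Ccl5* comparison was not tested beyond leaving the array out.

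**Figure D3:**
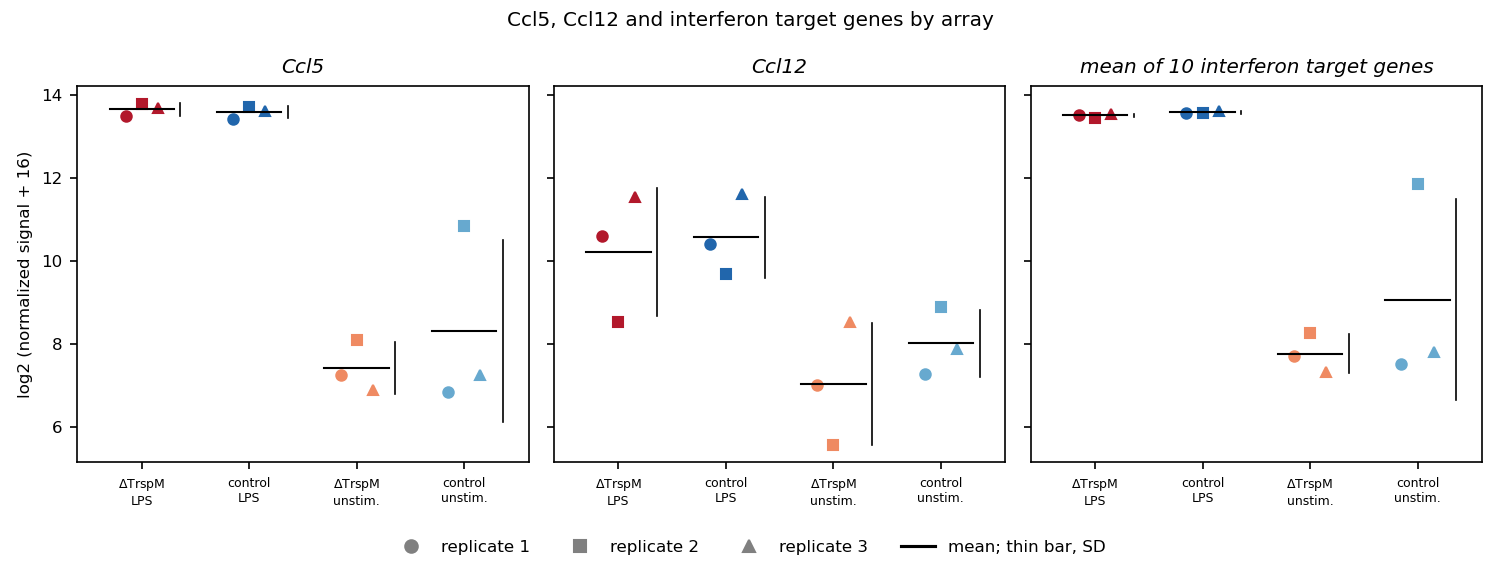
Log2 normalized signal (plus 16) of *Ccl5*, *Ccl12* and the mean of 10 interferon target genes on the 12 arrays, with points for replicates, horizontal lines for means and thin bars for the SD (n = 3). Replicate 2 of the unstimulated control cells is at 10.83 for *Ccl5* and 11.86 for the interferon mean, and LPS-stimulated arrays are at 13.42 or above in both of those panels.

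*Ccl6* and *Ccl9* are chemokines with an additional pair of cysteines that are made by rodent myeloid cells, bind CCR1 and are known for their constitutive expression in macrophages. On its brighter probe set, *Ccl6* had 11.47, 12.32 and 12.33 in LPS-stimulated ΔTrspM and 12.16, 12.02 and 12.31 in LPS-stimulated control cells. Without LPS it had 11.40, 12.21 and 12.66 in ΔTrspM and 12.41, 12.13 and 12.84 in control cells. All groups overlapped. The log2 fold change with LPS was -0.05 in ΔTrspM (interval -0.80 to 0.70, adjusted p = 0.945 in limma) and -0.30 in control cells (interval -1.05 to 0.46, adjusted p = 0.632). In ΔTrspM cells its sign turned without replicate 1 of LPS-stimulated or replicate 2 or 3 of unstimulated ΔTrspM cells (up to 0.24). The other probe set of *Ccl6*, of a type whose probes can match more than a single transcript, gave -0.22 in ΔTrspM and -0.47 in control cells, with adjusted p values of 0.779 and 0.515 when all probe sets were tested.

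On the probe set kept for the tests, *Ccl9* had 13.65, 13.94 and 13.69 in LPS-stimulated ΔTrspM and 13.42, 13.68 and 13.67 in LPS-stimulated control cells. Unstimulated levels were 13.33, 13.56 and 13.44 in ΔTrspM and 13.37, 13.61 and 13.45 in control cells. In ΔTrspM cells the stimulated arrays all lay above the unstimulated ones, by 0.25 to 0.38 within same-numbered pairs, while in control cells they overlapped. The log2 fold change was 0.32 in ΔTrspM (interval -0.07 to 0.70, adjusted p = 0.27 in limma) and 0.11 in control cells (interval -0.27 to 0.50, adjusted p = 0.733). The other probe set of *Ccl9* was about as bright, with means of 13.83 in both LPS-stimulated groups, 13.23 in unstimulated ΔTrspM and 13.36 in unstimulated control cells. It gave larger changes, 0.60 in ΔTrspM (interval 0.11 to 1.08, adjusted p = 0.105 in limma) and 0.47 in control cells (interval -0.02 to 0.95, adjusted p = 0.211). Neither passed the test, and the size of the change depended on the probe set. *Ccl9* was close to the highest value the scaling allows with or without LPS. Over the alternatives the log2 fold change ran between 0.14 and 0.84 in ΔTrspM cells, and between 0.06 and 0.45 in control cells. The value of 0.84 came with arrays centred on their medians.

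*Ccl17* (TARC) and *Ccl22* (MDC) are the ligands of CCR4, a receptor of type 2 helper and regulatory T cells, and are known in macrophages and dendritic cells as targets of IL-4 as well as of NF-κB. *Ccl17* had 10.36, 8.76 and 9.68 in LPS-stimulated ΔTrspM and 9.54, 8.57 and 10.04 in LPS-stimulated control cells. Without LPS it was dim, at 5.37, 5.65 and 6.44 in ΔTrspM and 5.18, 5.49 and 5.12 in control cells. The stimuli were separated by more than 2 on the log2 scale. *Ccl17* rose 13.8-fold in ΔTrspM cells (log2 fold change 3.78 ± 0.45 SE, adjusted p = 0.000317 in limma) and 17.4-fold in control cells (log2 fold change 4.12 ± 0.45, adjusted p = 0.00017). Since its deposited signals without LPS were only 22.1 to 27.8 in control cells, the fold depended on the value added before the logarithm and on the scaling, and the log2 fold change ran between 2.72 and 4.23 in ΔTrspM and between 3.06 and 4.81 in control cells over the alternatives.

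*Ccl22* had 13.13, 12.36 and 11.53 in LPS-stimulated ΔTrspM and 12.23, 11.20 and 12.00 in LPS-stimulated control cells. Its unstimulated levels were 6.81, 7.24 and 5.84 in ΔTrspM and 6.25, 6.39 and 4.63 in control cells. The rise was 52.5-fold in ΔTrspM cells (log2 fold change 5.71, interval 4.49 to 6.94, adjusted p = 8e-05 in limma) and 66.5-fold in control cells (log2 fold change 6.06, interval 4.84 to 7.28, adjusted p = 4.68e-05), and over the alternatives the log2 fold change ran between 4.84 and 6.12 in ΔTrspM and between 5.10 and 6.70 in control cells. LPS therefore raised both CCR4 ligands in each genotype, and the arrays of the stimuli did not overlap for either gene. The 8 genes of the IL-4 response list, among them *Arg1* and *Retnla*, held 0 calls with LPS in either genotype by limma. With replicates paired by number, 1 passed in ΔTrspM and 2 in control cells, where rises and falls were counted together. The list had medians of 0.07 in ΔTrspM and -0.30 in control cells.

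The arrays of ΔTrspM and control cells were compared at each stimulus. For the CC chemokines no difference between the genotypes passed the test. After LPS, 0 of the 10 genes differed at an adjusted p under 0.05, where 0.011% of all genes did, and the lowest adjusted p of a member was 0.956. Without LPS 0 of the 10 differed, as did 0% of all genes, and averaged over both stimuli 0 of the 10 differed, where 0.022% of all genes did. The count of members at an unadjusted p under 0.05 was 0 in each of these comparisons, and the methods' t-test and the fit with the replicate block made 0 calls too. The ΔTrspM and control arrays overlapped for all 10 genes at either stimulus. They were apart for 9.14% of all genes after LPS and 7.32% without it. At such shares, 0 of 10 does not set the chemokines apart from other genes.

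After LPS the differences, ΔTrspM minus control, ran between -0.35 for *Ccl12* and 0.53 for *Ccl22* and *Ccl7*, with a median of 0.17 against 0.04 over all genes. Their precision differed by gene. For *Ccl4* the difference was 0.17 (interval -0.29 to 0.62) and for *Ccl9* 0.17 (interval -0.21 to 0.55), so that a 2-fold decrease lay outside both intervals. The intervals cannot speak to a 2-fold rise. Means in LPS-stimulated control cells were already 13.42 for *Ccl4* and 13.59 for *Ccl9*, and the highest possible value of 14.25 left no room for it. *Ccl3* differed by 0.08 (interval -0.64 to 0.81) and *Ccl6* by -0.12 (interval -0.88 to 0.63). *Ccl2* differed by 0.17 (interval -0.92 to 1.26), *Ccl17* by 0.22 (interval -0.78 to 1.22) and *Ccl22* by 0.53 (interval -0.69 to 1.75). The widest intervals belonged to *Ccl7* (0.53, interval -0.91 to 1.96), *Ccl5* (0.07, interval -1.70 to 1.84) and *Ccl12* (-0.35, interval -2.26 to 1.56). Those of *Ccl5* and *Ccl12* contained a 2-fold difference in either direction. Each interval used a spread pooled over all 4 groups. For *Ccl5* the SD was 0.15 in LPS-stimulated ΔTrspM and 0.14 in LPS-stimulated control cells, but 2.19 in unstimulated control cells. Its width after LPS thus came mostly from the unstimulated control arrays. *Ccl3* and *Ccl5*, with means of 13.96 and 13.58 in LPS-stimulated control cells, had no room for a 2-fold rise either. Within same-numbered pairs, *Ccl7* was higher in ΔTrspM cells by 0.68, 0.47 and 0.43, *Ccl2* by 0.17, 0.29 and 0.05, *Ccl5* by 0.06, 0.08 and 0.07 and *Ccl9* by 0.23, 0.26 and 0.02. With replicates paired as a block, the adjusted p values were 0.774 for *Ccl7*, 0.909 for *Ccl2*, 0.984 for *Ccl5* and 0.748 for *Ccl9*. Without scaling between arrays, the differences of *Ccl2*, *Ccl7*, *Ccl3*, *Ccl4*, *Ccl5*, *Ccl9*, *Ccl17* and *Ccl22* turned negative, as did the median of all genes at -0.60.

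Without LPS the differences ran between -0.98 for *Ccl12* (interval -2.89 to 0.93) and 0.87 for *Ccl22* (interval -0.35 to 2.09), and their median was 0.04, the same as over all genes. *Ccl22* and *Ccl17* (0.55, interval -0.44 to 1.55) were higher in ΔTrspM cells in 3 of 3 same-numbered pairs, by 0.56, 0.85 and 1.20 for *Ccl22* and by 0.19, 0.16 and 1.32 for *Ccl17*, and neither passed the test (adjusted p = 1). *Ccl5* had a difference of -0.88 (interval -2.65 to 0.89), and without replicate 2 of the unstimulated control cells the difference was 0.38. For *Ccl12* the difference without replicate 2 of unstimulated ΔTrspM cells was -0.25, and after LPS it was 0.49 without the dim replicate 2 of ΔTrspM cells. *Ccl2* differed by 0.44, *Ccl7* by 0.31, *Ccl3* by 0.09, *Ccl4* by -0.02, *Ccl6* by -0.37 and *Ccl9* by -0.03 without LPS.

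**Figure D4:**
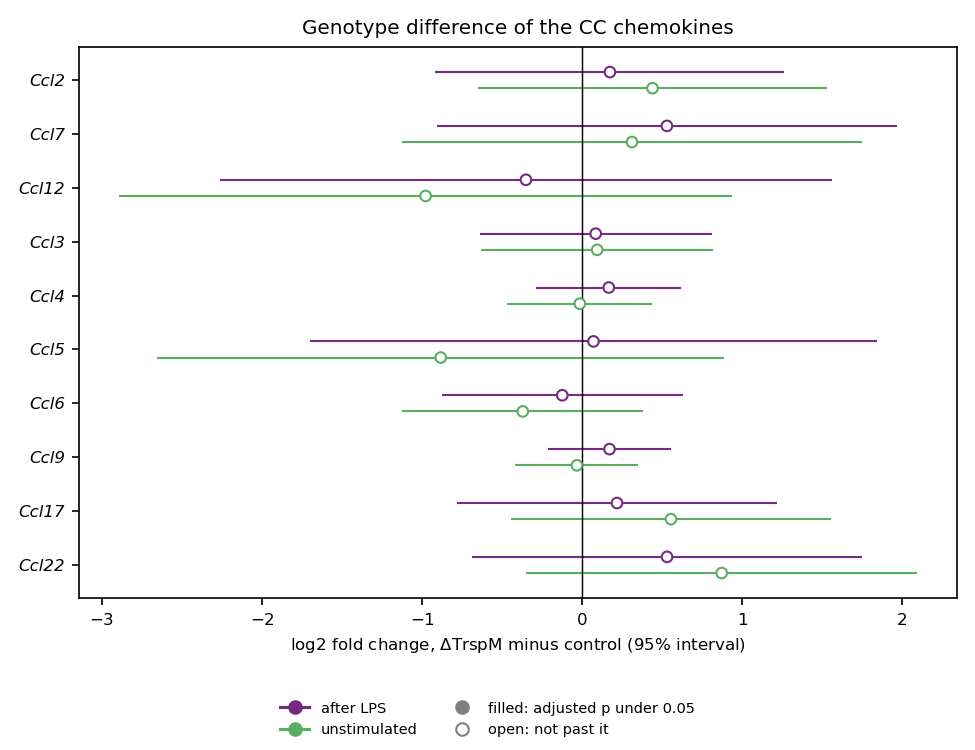
Log2 fold change, ΔTrspM minus control, of each CC chemokine after LPS (purple, upper) and unstimulated (green, lower), with 95% intervals as bars. All points are open (adjusted p of 0.956 or above) and every interval contains 0, with the narrowest for *Ccl9* and *Ccl4* and the widest for *Ccl12* and *Ccl5*.

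Whether the LPS response itself differed by genotype was tested as an interaction, the LPS change in ΔTrspM minus that in control cells. For the 10 genes the interaction ran between -0.34 and 0.95 on the log2 scale, 0 of them passed the test, as did 0% of all genes, and 0 had an unadjusted p under 0.05. *Ccl5* had the highest value, 0.95 (interval -1.55 to 3.46), which was -0.31 without replicate 2 of unstimulated control cells. *Ccl12* had 0.63 (interval -2.08 to 3.33). That *Ccl12* passed the test for LPS in ΔTrspM and not in control cells was thus not shown to be a difference between the genotypes.

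In order of mean level, both LPS-stimulated groups stood above both unstimulated groups for *Ccl2*, *Ccl7*, *Ccl12*, *Ccl3*, *Ccl4*, *Ccl5*, *Ccl17* and *Ccl22*. At each stimulus the arrays of the neighbouring genotypes overlapped. Single arrays also crossed between stimuli. *Ccl2* had 11.99 on LPS-stimulated control replicate 2 and 12.05 on unstimulated ΔTrspM replicate 3. *Ccl12* had 8.52 on LPS-stimulated ΔTrspM replicate 2 and 8.89 on unstimulated control replicate 2. Group means of *Ccl22*, for example, were 12.34 ± 0.80 in LPS-stimulated ΔTrspM, 11.81 ± 0.54 in LPS-stimulated control, 6.63 ± 0.72 in unstimulated ΔTrspM and 5.75 ± 0.98 in unstimulated control cells (SD, n = 3 each). On the probe set of *Ccl9* kept for the tests, the means were 13.76 ± 0.16, 13.59 ± 0.15, 13.44 ± 0.12 and 13.48 ± 0.12 in the same groups. Their range was smaller than the SD of *Ccl2* or *Ccl7* in any group. For *Ccl6* the unstimulated control cells had the highest mean, 12.46 ± 0.36, against 12.04 ± 0.49 in LPS-stimulated ΔTrspM cells.

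Of the 14 CC receptors and decoy receptors measured, 3 rose and 2 fell in ΔTrspM cells, and 3 rose and 1 fell in control cells. Of all genes, 7.29% rose and 8.51% fell in ΔTrspM cells, and 7.09% rose and 8.54% fell in control cells. The count of receptors that fell in control cells was thus about the share over all genes. The receptors had medians of 0.19 in ΔTrspM and -0.08 in control cells. *Ccr2*, the receptor of *Ccl2*, *Ccl7* and *Ccl12*, had 9.39, 7.46 and 8.99 in LPS-stimulated ΔTrspM and 8.80, 7.78 and 9.37 in LPS-stimulated control cells, against 11.52, 10.28 and 10.34 in unstimulated ΔTrspM and 10.89, 10.40 and 11.84 in unstimulated control cells. It fell by 2.10 on the log2 scale in ΔTrspM (adjusted p = 0.0325 in limma) and by 2.39 in control cells (adjusted p = 0.0177), while all 3 of its ligands rose in ΔTrspM cells. The call in ΔTrspM cells was lost without replicate 2 or 3 of LPS-stimulated (-1.53 and -2.29) or replicate 1, 2 or 3 of unstimulated ΔTrspM cells (-1.70, -2.32 and -2.29), and in control cells without replicate 2 of LPS-stimulated (-1.95) or replicate 3 of unstimulated cells (-1.99). Of the 4 probe sets of *Ccr2*, a second gave -2.10 in ΔTrspM and -2.35 in control cells, and the other 2 gave -0.57 and 0.06 in ΔTrspM and -0.50 and -0.17 in control cells (adjusted p of 0.518 or above). The mean of all 4 gave -1.18 in ΔTrspM (adjusted p = 0.0909) and -1.35 in control cells (adjusted p = 0.0552), so the calls held for the brighter probe sets and were lost for the mean.

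*Ccr1*, the receptor of *Ccl3*, *Ccl5*, *Ccl6* and *Ccl9*, fell by 1.20 on the log2 scale in ΔTrspM cells (adjusted p = 0.048 in limma), and its log2 fold change in control cells was -1.15 (adjusted p = 0.0571, and 0.0313 with the replicate block). Its dimmer probe set gave -0.95 in ΔTrspM and -0.62 in control cells (adjusted p = 0.135 and 0.345 in limma). The mean of its probe sets gave -1.07 in ΔTrspM cells (adjusted p = 0.0546), so the call was lost there. The call in ΔTrspM cells was lost without any 1 of the 6 ΔTrspM arrays and also without replicate 1 or 3 of LPS-stimulated or replicate 1 of unstimulated control cells (log2 fold change -1.36 to -1.09), and in control cells *Ccr1* passed without replicate 2 of the unstimulated arrays (-1.63, adjusted p = 0.00269). *Ccr7*, which guides mature dendritic cells and lymphocytes to lymph nodes, had 8.69, 8.13 and 7.22 in LPS-stimulated ΔTrspM and 7.22, 7.30 and 6.81 in LPS-stimulated control cells, against 5.33, 5.56 and 4.38 in unstimulated ΔTrspM and 4.64, 4.97 and 4.42 in unstimulated control cells. It rose by 2.93 in ΔTrspM (adjusted p = 0.000616 in limma) and 2.43 in control cells (adjusted p = 0.00171). *Ccrl2*, an atypical receptor that does not signal through G proteins, rose by 5.33 in ΔTrspM (adjusted p = 2.12e-07) and 4.998 in control cells (adjusted p = 3.43e-07). *Ccr9* rose by 2.90 in ΔTrspM and 2.59 in control cells on its brightest probe set, but its 5 probe sets disagreed, with log2 fold changes between -0.61 and 2.90 in ΔTrspM cells. *Ccr4*, the receptor of *Ccl17* and *Ccl22*, had -0.54 in ΔTrspM and -0.13 in control cells (adjusted p = 0.41 and 0.876), and 0 receptors passed the test between genotypes.

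**Figure D5:**
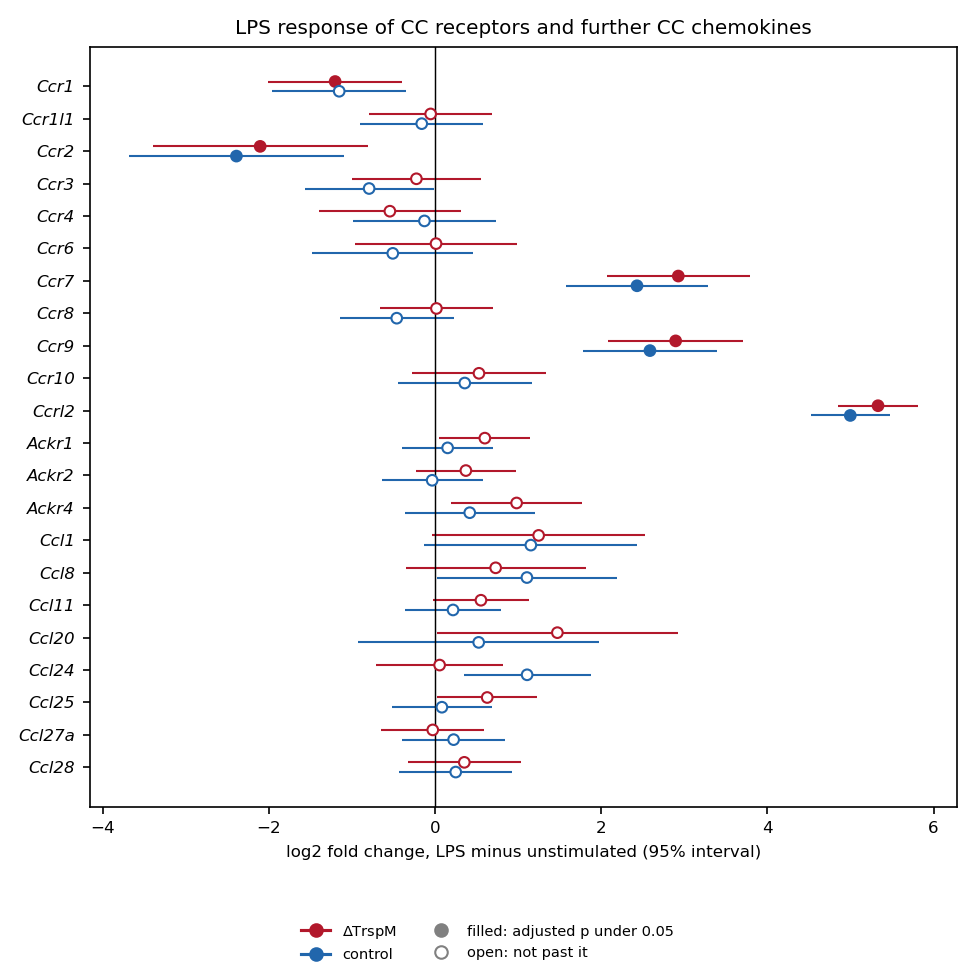
Log2 fold change, LPS minus unstimulated, of 14 CC receptors and 8 further CC chemokines in ΔTrspM (red, upper) and control cells (blue, lower), with 95% intervals as bars and filled points for an adjusted p under 0.05. *Ccrl2*, *Ccr7* and *Ccr9* lie to the right of 0, *Ccr2* to the left at -2.10 and -2.39, and no further CC chemokine has a filled point.

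Of 12 further CC chemokines listed, 8 were measured and none passed the test with LPS, with medians of 0.59 in ΔTrspM and 0.39 in control cells. With replicates paired by number 1 passed in ΔTrspM and 2 in control cells. *Ccl20*, the ligand of CCR6, had 5.63, 4.33 and 7.95 in LPS-stimulated ΔTrspM and 4.89, 5.19 and 4.80 in LPS-stimulated control cells, against 4.65, 4.29 and 4.56 in unstimulated ΔTrspM and 4.41, 4.29 and 4.59 in unstimulated control cells. Replicate 3 of LPS-stimulated ΔTrspM cells stood out, and the log2 fold change of 1.47 in ΔTrspM cells had an adjusted p of 0.169. *Ccl24*, an eotaxin, had a log2 fold change of 1.11 in control cells (adjusted p = 0.0532 in limma) and 0.06 in ΔTrspM cells (adjusted p = 0.94). After LPS it differed by -0.97, ΔTrspM minus control, lower in 3 of 3 pairs, with an adjusted p of 0.783.

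The induced chemokines rose beside the known targets of NF-κB and of interferon regulatory factors. Of 13 measured NF-κB targets 12 rose in each genotype, with medians of 3.37 in ΔTrspM and 3.06 in control cells, and all 10 measured interferon targets rose in each, with medians of 5.58 and 4.43 in the same order. Of all genes, 7.29% rose in ΔTrspM and 7.09% in control cells. *Il1a* rose by 7.63 in ΔTrspM and 7.60 in control cells, *Tnf* by 3.57 and 3.93, *Tnfaip3*, an inhibitor of NF-κB signalling, by 3.37 and 3.02 and *Cd40* by 5.25 and 4.87 on the log2 scale. Among the interferon targets *Oasl1* rose by 6.61 and 5.53, *Mx1* by 6.63 and 5.76, *Cmpk2* by 6.18 and 4.90 and *Ifit1* by 6.75 and 4.83, each in ΔTrspM and control cells in turn. The control values rested on replicate 2 of the unstimulated control cells, the array on which these genes were high. Without it they were 6.73 for *Oasl1*, 7.25 for *Mx1*, 6.25 for *Cmpk2*, 6.20 for *Ifit1*, 5.73 for *Cd40*, 4.45 for *Tnf*, 8.01 for *Il1a* and 3.20 for *Tnfaip3*, and the control medians were 5.93 for the interferon targets and 3.90 for the NF-κB targets. *Nfkbia*, the gene of IκBα, did not pass the test (0.35 in ΔTrspM and 0.24 in control cells), and 0 genes of either list passed it between genotypes.

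Over the 12 arrays, the genes outside the family with the closest pattern differed between chemokines. Likeness was Pearson's r of log2 signals among 11617 genes, a description in which all points share the 12 arrays and the LPS groups. *Ccl5* was closest to *Oasl1* and *Ifih1*, an RNA sensor induced by interferon (r = 0.998 and 0.997). *Ccl4* was closest to *Shisa3* and to *Rel*, a subunit of NF-κB (both r = 0.998), and *Ccl3* to *Irak2*, a kinase of the Toll-like receptor pathway, and *Slco3a1* (both r = 0.994). *Ccl2* and *Ccl7* shared *Mex3a* as the closest gene (r = 0.973 and 0.968), followed by *Chst7* for *Ccl2* (0.959) and *Jdp2* for *Ccl7* (0.958). *Ccl12* was closest to *Pttg1* and *Apool* (0.941 and 0.935), *Ccl17* to *Nts* and *Oaf* (0.994 and 0.989) and *Ccl22* to *Aebp2* and *Pip5k1a* (0.988 and 0.982). The constitutive *Ccl9* was closest to *Cars* and the amino acid transporter subunit *Slc3a2* (0.933 and 0.929), and *Ccl6* to *Rbm45* and *Abca3* (0.895 and 0.812).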

How the data were processed

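Total RNA of 12 BMDM cultures was hybridized to GeneChip mouse expression arrays. The deposited values, made by the authors in Expression Console, were linear signal intensity for 45101 probe sets, and which summarization they used is not stated in the sources. Here 64 control probe sets were left out, the signals of the other 45037 were quantile-normalized, 16 was added and log2 taken. Of these, 34945 had 1 gene symbol, and the brightest probe set of each gene was kept (18193 genes). Differences were tested in limma 3.58.1 (R 4.3.3) with the 4 groups in 1 fit (8 residual degrees of freedom) and Benjamini-Hochberg adjustment over all genes. Precision is limited by the few arrays, since with 3 against 3 an exact test cannot go below 0.1. Same-numbered arrays deviated together in all 12 pairs (r = 0.126 to 0.442, required 0.1), so numbers were taken to pair the cultures. The limma p-values, intervals and lost calls are nonetheless from fits without pairing, unless pairing or the block is named. The fit with the number as a block is given where it changed a call and for the CCR2 ligands. No array was left out of the paired fit. The members, gene lists and marker lists were chosen with earlier results of these data known. All 10 members are named, with receptors and further CC chemokines past the test, up to 4 genes of other lists by p, and the 2 most alike genes of each member; *Ccl20*, *Ccl24*, *Ccr4* and *Nfkbia* were added after their values were seen. Alternatives covered scaling, the value added, probe sets, a filter on dim genes, arrays in the fit, the variance model, the methods' t-test, the block and leaving out arrays.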

Additional observations from a re-analysis of the deposited data

Results flagged for a closer look

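On the probe set kept for the tests, *Ccl9* had a genotype difference that pointed in opposite directions at the 2 stimuli in every same-numbered pair. After LPS, ΔTrspM cells were higher by 0.23, 0.26 and 0.020 on the log2 scale in pairs 1 to 3. Without LPS the differences, ΔTrspM minus control, were -0.039, -0.051 and -0.011. The interaction tested in limma was 0.20 (interval -0.34 to 0.75, adjusted p = 1). The other probe set of *Ccl9* did not show this: its differences were -0.12, -0.038 and 0.16 after LPS and -0.15, -0.25 and 0.017 without LPS, with the same sign at both stimuli in each pair.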

How the results depend on the processing

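Over 24 alternatives, *Ccl3*, *Ccl4*, *Ccl17* and *Ccl22* kept their rise with LPS past the threshold in 24 of 24 in both genotypes, *Ccl5* in 24 in ΔTrspM and 23 in control cells, *Ccl7* in 22 and 20, *Ccl12* in 17 and 4 and *Ccl2* in 13 and 19; *Ccl6* and *Ccl9* passed in 0. Members called with LPS numbered 5 in ΔTrspM cells without scaling, 5 in ΔTrspM and 4 in control cells with the methods' t-test, and 6 to 8 in ΔTrspM and 5 to 8 in control cells when an array was left out. Of all genes, 1326 rose and 1548 fell with LPS in ΔTrspM and 1290 rose and 1554 fell in control cells; in both directions together, 4503 and 4544 probe sets passed when all were tested, 1376 and 824 genes with the t-test, 893 in control cells without scaling, and 1704 in ΔTrspM cells without replicate 1 of unstimulated ΔTrspM cells. Between genotypes 0 to 6 genes passed in any setting. The block changed no call of a member other than *Ccl12* in control cells. Of all genes, 4086 passed with LPS in ΔTrspM and 4108 in control cells in the fit with the block.

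Several genotype differences changed sign, none past the threshold. After LPS, with no scaling, they were -0.57 for *Ccl2*, -0.38 for *Ccl7*, -0.073 for *Ccl3*, -0.15 for *Ccl4*, -0.26 for *Ccl5*, -0.091 for *Ccl9*, -0.68 for *Ccl17* and -0.24 for *Ccl22*, beside a shift of -0.60 over all genes; with median centring *Ccl2* had -0.060 and *Ccl17* -0.17. When an array was left out they were -0.18 to 0.48 for *Ccl2*, -1.01 to 0.49 for *Ccl12*, -0.0090 to 0.15 for *Ccl5*, -0.27 to 0.16 for *Ccl6* and -0.19 to 0.64 for *Ccl17*. Without LPS the corresponding ranges were -0.34 to 0.72 for *Ccl7*, -0.28 to 0.44 for *Ccl3*, -0.11 to 0.10 for *Ccl4*, -1.62 to 0.38 for *Ccl5* and -0.093 to 0.034 for *Ccl9*; *Ccl3* had -0.048 without scaling and *Ccl9* 0.031 with median centring. Without both arrays that stand apart, a choice made after seeing the data, *Ccl12* had 0.49 after LPS, and *Ccl4* 0.10, *Ccl5* 0.38 and *Ccl9* 0.034 without LPS. The interaction of *Ccl12* was -0.051 without scaling and -0.11 to 1.47 with an array left out; that of *Ccl5* was -0.38 without both arrays and -0.31 to 1.69 with an array left out. The LPS change of *Ccl6* in ΔTrspM cells was -0.39 to 0.24 with an array left out. The cause of these changes was not tested. No genotype difference of a member passed in any alternative (lowest adjusted p 0.468 after LPS), and signals near the top of the scale or near background limit what small differences can be seen.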
